A study of Mus musculus with 12 samples.

Results

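A set of 10 genes that mark the endothelial cells lining the sinusoids of the liver (Cdh5, Flt4, Kdr, Stab1, Stab2, Oit3, Lyve1, Clec4g, Pecam1 and Tek) were followed in the livers of obese mice kept on 2 amounts of dietary protein. The 10 genes were taken by symbol from a table of 56980 genes, and all 10 passed the filter on low counts. RNA-seq was done on whole liver of male ob/ob mice (strain B6.Cg-Lepob/J, genotype Lep-/-), which lack leptin, overeat and become obese. All mice were 8 weeks old when they went onto their chow, ate it ad libitum for 3 weeks and were 11 weeks old at harvest. One group of 6 mice ate a standard protein diet (SPD, 25% of kcal from protein) and the other group of 6 ate a low protein diet (LPD, 5% of kcal from protein). Both groups carry the Lep mutation, so every comparison below is between groups of leptin-deficient mice, and no lean mouse is part of it.

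Sinusoidal endothelial cells form the wall of the liver's capillaries. They are perforated by open pores, lack a continuous basement membrane, and take up waste macromolecules from the blood through scavenger receptors such as the stabilins. Their growth and upkeep depend on vascular endothelial growth factors (VEGFs), many of which come from hepatocytes, and on the angiopoietins, which signal through the receptor tyrosine kinase Tek. Several of the markers are shared with other cells: Cdh5, Pecam1, Kdr and Tek are expressed by endothelium in general, Flt4 and Lyve1 also by lymphatic endothelium, Stab1 and Lyve1 also by some macrophages, and Pecam1 also by platelets and leukocytes.

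The livers held between 19374676 and 23710930 counts each. Levels below are given in CPM (counts of a gene relative to the total count of its library), scaled between libraries by edgeR's trimmed mean of M values. The first principal component held 47.1% of the variance and separated the diets, with SPD livers at -32.1 to -24.7 and LPD livers at 15.3 to 48.7; LPD replicates 2 (48.7) and 5 (44.6) lay farthest out. LPD replicate 1 carries LPD in its title and library code but 25% protein in its treatment label. On the first component it stood at 15.3, the LPD liver nearest to SPD but outside the SPD range. This liver was kept in LPD, and results that change when it is counted as SPD are given with both values. The library codes begin with SP1 or SP2 in SPD and with LP4 or LP5 in LPD, and since no code occurs in both diets, a difference between codes and one between diets cannot be told apart. Albumin, chosen for mention after its values were seen, stood at 65535 ± 3993 CPM (SD, n = 6) in SPD and 57232 ± 9437 CPM (SD, n = 6) in LPD, while the 10 markers together summed to 450 to 504 CPM in SPD and 392 to 467 CPM in LPD.

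Of the 10 markers, 4 were lower in LPD livers (Cdh5, Flt4, Kdr and Stab1), 1 was higher (Oit3) and 5 did not pass the test (Stab2, Lyve1, Clec4g, Pecam1 and Tek), by edgeR's quasi-likelihood test with Benjamini-Hochberg adjustment over 13768 genes at an adjusted p under 0.05. Across all tested genes the same rule called 19.2% lower and 20.7% higher in LPD. The estimate was below 0 for 9 of the 10 markers, and their median log2 fold change, LPD over SPD, was -0.17, where that of all tested genes was -0.00059. The SPD and LPD livers did not overlap for Cdh5, Flt4 and Kdr, with LPD below, a pattern shown by 9.73% of all tested genes, nor for Oit3, with LPD above, shown by 10.2%. All the changes were small, from 9.86% up to 24.7% down. In whole liver, fewer endothelial cells and less RNA of a gene per cell cannot be told apart.

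**Figure D1:**
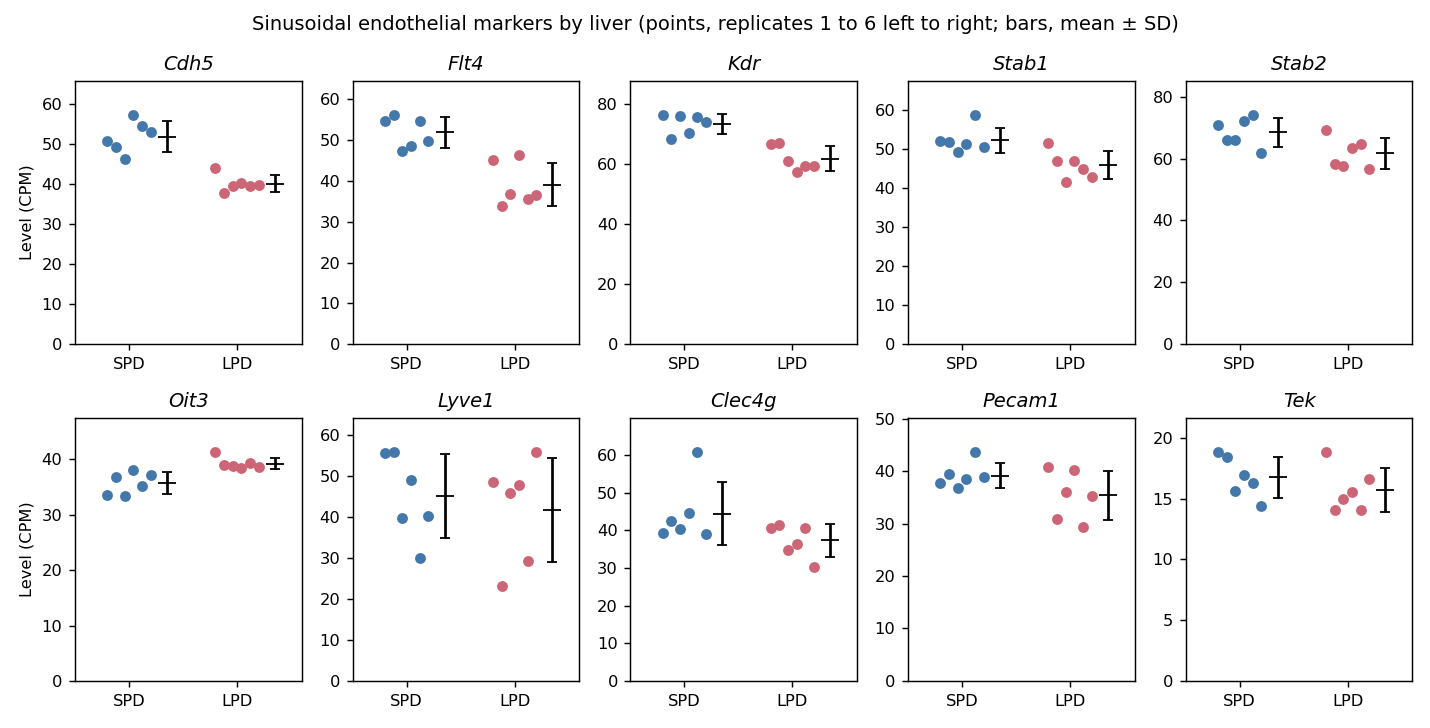
CPM of the 10 sinusoidal endothelial markers in each liver, by diet; each point is 1 liver (6 per diet) and the black bar beside them is the mean ± SD. Cdh5, Flt4 and Kdr are lower in every LPD liver than in any SPD liver, Oit3 is higher in every LPD liver, and Lyve1 spreads from 23.1 to 55.9 CPM.

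Levels can be compared between genes only per length, here as CPM per kilobase of the deposited gene length. On this scale Clec4g stood highest in SPD livers at 35.8 and was above Lyve1, at 15.6, in all 6 SPD and all 6 LPD livers. Pecam1 (13.15), Oit3 (13.15) and Cdh5 (12.99) had levels in SPD that did not differ beyond their spread, each being above the next in 3 or 4 of the 6 livers. Kdr followed at 12.4 and stood above Stab2 (8.31) in all 6 livers of each diet. Stab2 and Flt4 (8.29) did not separate in SPD, with Stab2 higher in 3 of 6 livers. Stab1 (6.54) and Tek (3.60) were the lowest, and Tek was the lowest in every liver. The order moved in LPD for the genes in the middle: Oit3, at 14.4, stood above Cdh5, at 10.1, in all 6 LPD livers, and Stab2, at 7.49, stood above Flt4, at 6.24, in all 6.

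Cdh5 and Pecam1 are the adhesion molecules of the endothelial junction. Cdh5, which encodes VE-cadherin of the adherens junction, lies on chromosome 8 at 104101625 to 104144511 of GRCm38, plus strand. It measured 46.3 CPM in the lowest, 52.0 at the median and 57.2 in the highest SPD liver, and 37.7, 39.8 and 44.0 CPM in LPD. Every LPD liver was below every SPD liver. The fall was 22.6%, a log2 fold change of -0.37 ± 0.057 (SE; adjusted p = 0.000138), from a mean of 51.9 ± 3.88 to 40.2 ± 2.07 CPM (SD, n = 6 each), and it passed the test in all 23 alternative analyses. An antisense gene, Gm29682, overlaps Cdh5, and the strand setting of the counting is not given in the sources used here. Reads from the stretch the 2 genes share may therefore be counted for either.

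Pecam1 (CD31; chromosome 11, 106654217 to 106750628, minus strand) is a homophilic adhesion receptor at the contacts between endothelial cells. SPD livers ran from 36.7 through a median of 38.7 to 43.6 CPM and LPD livers from 29.4 through 35.6 to 40.7 CPM. The groups overlapped, and LPD replicates 5 and 2, at 29.4 and 30.8 CPM, were the lowest of the 12 livers. The log2 fold change was -0.15 ± 0.079 (SE; adjusted p = 0.158), and Pecam1 did not pass in any alternative analysis. The estimate was -0.096 without LPD replicate 5 and -0.040 without LPD replicates 2 and 5.

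Kdr and Flt4 are the VEGF receptors of the list. Kdr, the main signalling receptor for VEGF-A, lies on chromosome 5 at 75932827 to 75978458, minus strand. SPD livers measured 68.2, 74.7 and 76.1 CPM at their lowest, median and highest, against 57.1, 60.1 and 66.9 CPM in LPD. The ranges did not touch: LPD replicates 1 and 2, at 66.7 and 66.9 CPM, lay just under SPD replicate 2, at 68.2 CPM. Kdr fell by 15.8%, from 73.3 ± 3.33 to 61.7 ± 4.15 CPM (SD, n = 6 each), with a log2 fold change of -0.25 ± 0.054 (SE; adjusted p = 0.00185). With the 4 SP1 and 4 LP4 libraries alone it no longer passed (adjusted p = 0.057, the highest of its 23 alternatives).

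Flt4 (chromosome 11, 49609263 to 49652739, plus strand) is the receptor for VEGF-C and VEGF-D and is found on sinusoidal and lymphatic endothelium. Its SPD livers measured 47.2 CPM at the lowest, 52.3 at the median and 56.1 at the highest, and its LPD livers 33.9, 36.7 and 46.3 CPM. Within LPD, replicates 4 and 1 stood at 46.3 and 45.1 CPM, close under the SPD livers, and the other 4 at 36.9 CPM or less. Flt4 fell by 24.7%, the largest fall of the 10 markers, with means of 51.9 ± 3.74 and 39.0 ± 5.25 CPM (SD, n = 6 each) and a log2 fold change of -0.41 ± 0.081 (SE; adjusted p = 0.000962). It passed in all 23 alternatives.

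The ligands and remaining receptors of the VEGF and angiopoietin pathway formed a list of 11 genes, of which 10 could be tested: 2 were higher in LPD (Vegfa and Nrp1), 2 were lower (Vegfb and Tie1) and 6 did not pass. These counts are near the shares of all tested genes, of which 20.7% were called higher and 19.2% lower. Vegfa, the main ligand of Kdr, rose from 58.7 to 71.2 CPM, a log2 fold change of 0.28 ± 0.085 (SE; adjusted p = 0.0164). The call was lost when only SP1 and LP4 libraries were kept (adjusted p = 0.238, the highest of its alternatives) and without LPD replicates 2 and 5 (0.0554). Nrp1, a coreceptor that binds VEGF-A beside Kdr, rose from 35.7 to 42.6 CPM (log2 fold change 0.26 ± 0.077 SE, adjusted p = 0.0148); with LPD replicate 1 counted as SPD the adjusted p was 0.172, the highest of its alternatives. Vegfb, a ligand of Flt1, fell from 13.1 to 9.16 CPM (log2 fold change -0.52 ± 0.12 SE, adjusted p = 0.0036). For Flt1 itself, the other VEGF-A receptor, the log2 fold change was 0.0089 ± 0.057 (SE; adjusted p = 0.919), with 15.8 CPM in SPD and 16.0 in LPD. The ligands of Flt4 did not pass, Vegfc at -0.21 ± 0.13 (SE; adjusted p = 0.221) and Vegfd at -0.76 ± 0.44 (SE; adjusted p = 0.182), nor did the coreceptor Nrp2, at 0.12 ± 0.059 (SE; adjusted p = 0.116).

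Tek (Tie2; chromosome 4, 94739289 to 94874976, plus strand) is the receptor of the angiopoietins and Tie1 is its partner without a direct ligand of its own. Tek measured 14.4, 16.6 and 18.8 CPM at the lowest, median and highest SPD liver, and 14.1, 15.3 and 18.8 CPM in LPD. The 2 ranges covered nearly the same span, with SPD replicate 1 and LPD replicate 1 the highest of their groups. Its log2 fold change was -0.093 ± 0.085 (SE; adjusted p = 0.413), and it passed in no alternative. The estimate was -0.15 without LPD replicate 1, -0.18 with that liver counted as SPD, -0.056 without SPD replicate 1 and -0.019 without LPD replicates 2 and 5. Tie1 fell from a median of 21.0 to 16.5 CPM without overlap of the diets (SPD 20.1 to 24.5, LPD 15.9 to 17.4 CPM; log2 fold change -0.36 ± 0.058 SE, adjusted p = 0.000183). The angiopoietins did not pass: Angpt1, the agonist of Tek, was at 0.45 ± 0.34 (SE; adjusted p = 0.312) and Angpt2 at -0.22 ± 0.28 (SE; adjusted p = 0.575).

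RefSeq promoter sequence of GRCm38.p6 was matched by symbol for 6 of the 10 markers (Flt4, Kdr, Stab1, Stab2, Clec4g and Tek). Those of Kdr and Stab1, which were lower in LPD, and of Tek, which did not pass, are shown as the bases before the gene start, 5′ to 3′ on the strand of the gene. They are shown because GGAAG, the string searched here for ETS factors, a family of endothelial regulators, differs in number between them. Capitals mark GGAAG and its reverse complement CTTCC, so both strands are marked. Kdr is chr5:75978459-75978705 (minus strand), Stab1 is chr14:31168642-31168891 (minus strand) and Tek is chr4:94739039-94739288 (plus strand).
Kdr: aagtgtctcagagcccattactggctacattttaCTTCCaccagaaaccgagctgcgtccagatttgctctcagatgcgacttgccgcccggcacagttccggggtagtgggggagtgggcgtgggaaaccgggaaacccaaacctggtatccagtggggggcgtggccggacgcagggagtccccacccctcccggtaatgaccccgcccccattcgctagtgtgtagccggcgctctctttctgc
Stab1: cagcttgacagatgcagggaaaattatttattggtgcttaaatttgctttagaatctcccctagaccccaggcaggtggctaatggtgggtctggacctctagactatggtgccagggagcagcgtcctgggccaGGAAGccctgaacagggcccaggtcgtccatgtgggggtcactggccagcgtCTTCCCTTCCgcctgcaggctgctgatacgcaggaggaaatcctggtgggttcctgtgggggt
Tek: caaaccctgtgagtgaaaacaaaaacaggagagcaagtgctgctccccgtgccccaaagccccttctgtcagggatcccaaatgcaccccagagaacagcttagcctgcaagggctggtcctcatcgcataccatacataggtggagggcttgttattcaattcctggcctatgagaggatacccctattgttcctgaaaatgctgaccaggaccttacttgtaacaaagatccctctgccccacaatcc
Kdr held 1 match, Stab1 held 3, of which 2 lie next to each other without overlapping, and Tek held 0. The shorter string GGAA was not counted, and its reverse complement TTCC stands in the printed Tek sequence. In the 250 bases before the RefSeq start, Flt4 and Stab2 held 1 match each and Clec4g held 3; all 250 bases of the Flt4 window and 83 of the Stab2 window lie inside the gene as GENCODE draws it. With these windows counted, 5 of 6 markers had the motif, as did 64.1% of 32851 promoters of all genes in the same RefSeq windows. Of the 5, Flt4, Kdr and Stab1 were called lower in LPD, while Stab2 and Clec4g did not pass. Matches thus stood in called and uncalled markers alike, and a link between the motif and the diet was not tested. The GATA motif AGATAA, searched on both strands, was in 0 of the 6 and in 9.99% of all promoters, and the 2 motifs share no bases in these windows. The shorter string GATA was not counted, and it or its reverse complement TATC stands in each printed sequence. A match is a description of the letters and does not show a bound site.

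The stabilins, Lyve1 and Clec4g are the uptake and binding receptors of the list. Stab1 (chromosome 14, 31139013 to 31168641, minus strand) is a scavenger receptor of modified lipoproteins and matrix fragments. SPD livers measured 49.4, 51.6 and 58.7 CPM at the lowest, median and highest and LPD livers 41.6, 46.0 and 51.7 CPM. The diets overlapped through LPD replicate 1, at 51.7 CPM; the other 5 LPD livers were below all SPD livers. Stab1 fell by 12.3% (log2 fold change -0.19 ± 0.060 SE, adjusted p = 0.0201). The call was lost in 5 of 23 alternatives, with adjusted p-values of 0.0519 without SPD replicate 5, 0.0527 without LPD replicate 3, 0.0505 without LPD replicate 6, 0.11 with plain library totals and 0.224 with the SP1 and LP4 libraries alone. The protein-coding gene Nt5dc2 overlaps Stab1 on the opposite strand, so reads from the stretch they share may be counted for either gene.

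Stab2 (chromosome 10, 86841198 to 87008025, minus strand) clears hyaluronan from the blood. Its SPD livers ran from 61.9 through a median of 68.3 to 73.9 CPM and its LPD livers from 56.6 through 60.8 to 69.1 CPM, again with LPD replicate 1 the highest of the LPD group. The log2 fold change was -0.15 ± 0.062 (SE; adjusted p = 0.0657). It passed in 5 of 23 alternatives, among them without LPD replicate 1 (0.0257), with that liver counted as SPD (0.0265) and without SPD replicate 6 (0.0385). Another 5 antisense genes and pseudogenes overlap Stab2 on the opposite strand.

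Lyve1 (chromosome 7, 110850607 to 110863239, minus strand), a hyaluronan receptor, was the most variable of the 10. SPD livers measured 30.1, 44.7 and 55.9 CPM at the lowest, median and highest, and LPD livers 23.1, 46.9 and 55.9 CPM. Low livers occurred in both diets: LPD replicates 2 and 5 had 23.1 and 29.3 CPM and SPD replicate 5 had 30.1 CPM. The coefficient of variation was 22.6% in SPD and 30.4% in LPD, and the highest liver was 2.42 times the lowest. The log2 fold change was -0.11 ± 0.20 (SE; adjusted p = 0.695), and it became 0.016 without LPD replicate 2 and 0.14 without LPD replicates 2 and 5.

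Clec4g (chromosome 8, 3707064 to 3720651, minus strand), the C-type lectin LSECtin, binds glycans of viruses and activated T cells. It measured 39.0, 41.5 and 60.7 CPM in the lowest, median and highest SPD liver and 30.2, 38.4 and 41.4 CPM in LPD. SPD replicate 5 stood alone at 60.7 CPM, with the next SPD liver at 44.6 CPM. The log2 fold change was -0.25 ± 0.11 (SE; adjusted p = 0.0726) and became -0.14 without SPD replicate 5; it passed in 3 of 23 alternatives, among them limma-voom (0.047) and the fit without LPD replicates 2 and 5 (0.0495). An antisense gene, Gm16553, overlaps Clec4g. SPD replicate 5 was also the highest liver for Stab1, Stab2 and Pecam1, and the lowest SPD liver for Lyve1.

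Oit3 (chromosome 10, 59422958 to 59441778, minus strand), a secreted protein with a zona pellucida domain made by the liver, was the one marker that was higher in LPD. SPD livers measured 33.4, 36.0 and 38.1 CPM at the lowest, median and highest, and LPD livers 38.5, 38.9 and 41.3 CPM. All LPD livers lay above all SPD livers, but the highest SPD liver, replicate 4 at 38.1 CPM, came close to the lowest LPD livers at 38.5 CPM. The rise was 9.86% (35.7 ± 1.95 to 39.2 ± 1.06 CPM, SD, n = 6 each; log2 fold change 0.14 ± 0.048 SE, adjusted p = 0.0335). It lost its call in 11 of 23 alternatives, the highest adjusted p being 0.242 with LPD replicate 1 counted as SPD, and among single livers this happened without SPD replicates 1 (0.0737), 3 (0.0778) or 5 (0.0593) and without LPD replicates 1 (0.075) or 5 (0.0501).

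**Figure D2:**
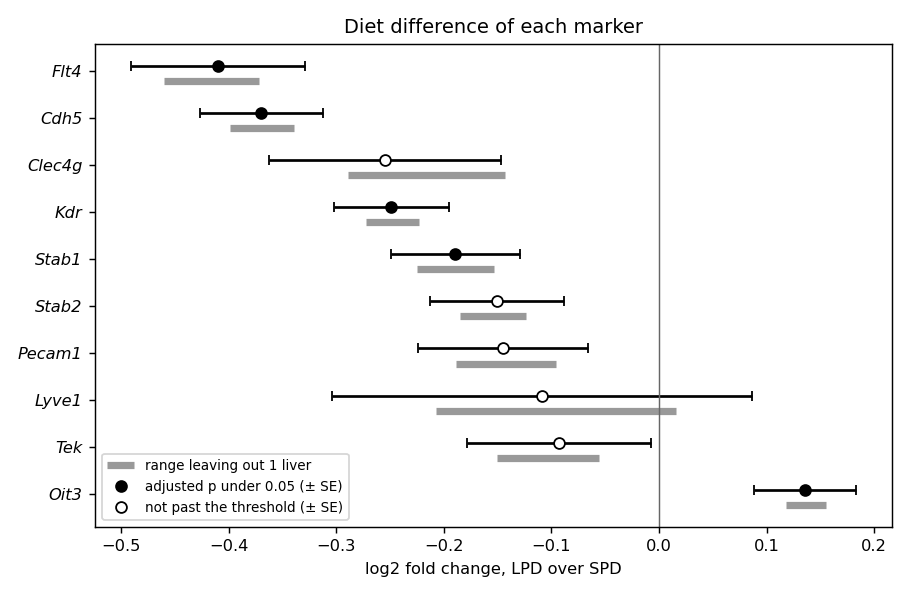
Log2 fold change (LPD over SPD) of the 10 markers from edgeR, with bars of 1 standard error; filled points passed an adjusted p under 0.05, and grey bars give the range when 1 liver at a time is left out. Flt4 (-0.41), Cdh5 (-0.37), Kdr (-0.25) and Stab1 (-0.19) are below 0, Oit3 (0.14) is above, and the bar of Lyve1 is the widest.

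Whether genes of one role changed by the same amount was tested on their log2 ratio in each liver, by an exact two-sided permutation test over the 924 ways to assign the diets, for 7 pairs with Benjamini-Hochberg adjustment over the 7. The pairs were chosen with earlier results of these data known, which the p-values do not take into account. The ratio of Kdr to Flt1, the 2 receptors of VEGF-A, fell from 2.20 ± 0.035 to 1.94 ± 0.078 (log2 units, SD, n = 6 each), a difference of -0.26 (p = 0.00216, the smallest these permutations can give, adjusted p = 0.0152). The SPD livers lay between 2.16 and 2.25 and the LPD livers between 1.83 and 2.08, so Kdr was lower relative to Flt1 in every LPD liver. With only the SP1 and LP4 libraries the difference was -0.22 (adjusted p = 0.1), where 4 livers against 4 allow no exact p below 0.0286. After adjustment over the 7 pairs, a pair at that floor passes only if several others reach it too. The lost call therefore cannot tell a weaker difference from the limit of the smaller set.

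The ratio of Cdh5 to Pecam1 went from 0.40 ± 0.099 to 0.19 ± 0.15 log2 units (SD, n = 6 each), a difference of -0.21 (exact permutation p = 0.0152, adjusted p = 0.053). It passed without SPD replicate 2 (-0.23, adjusted p = 0.0455), without LPD replicate 5 (-0.26, 0.00758) and without LPD replicates 2 and 5 (-0.30, 0.0167), and with LPD replicate 1 counted as SPD it was -0.16 (0.295). The ratio of Tek to Tie1 differed by 0.26 (exact permutation p = 0.0346, adjusted p = 0.0808) and passed without SPD replicate 2 (0.31, 0.0455) and without LPD replicates 2 and 5 (0.35, 0.0222), while with LPD replicate 1 counted as SPD it was 0.11 (0.622). For Kdr over Flt4 the difference was 0.17 (exact permutation p = 0.132, adjusted p = 0.231), which passed without LPD replicate 4 (0.24, 0.0379) and was 0.072 without LPD replicates 2 and 5. The ratios among the uptake receptors gave -0.092 for Clec4g over Stab2, 0.039 for Stab2 over Stab1 and 0.0071 for Lyve1 over Stab2, with adjusted p-values of 0.462, 0.462 and 0.976 by the same exact test.

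**Figure D3:**
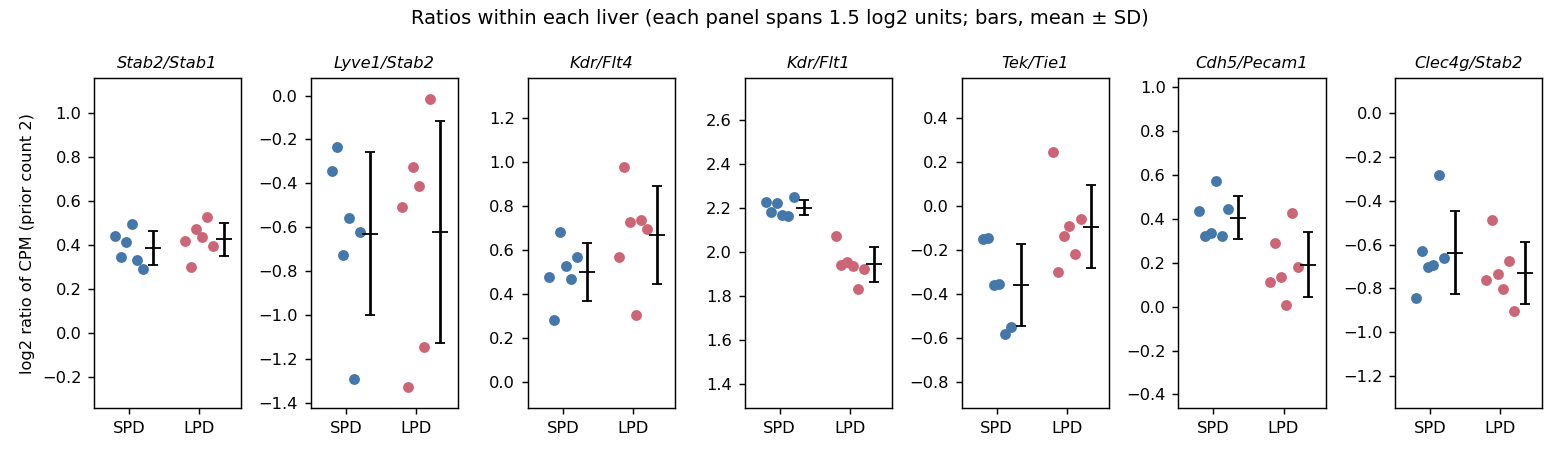
Log2 ratio of CPM for the 7 pairs in each liver, by diet (points are livers, 6 per diet, black bars are mean ± SD). Kdr over Flt1 is the pair whose diets do not overlap, with SPD at 2.16 to 2.25 and LPD at 1.83 to 2.08.

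Other endothelial genes were read from lists of markers. Among all tested genes 19.2% were called lower and 20.7% higher, and no list was tested against these shares. Of 14 further genes of sinusoidal endothelium, 4 were lower in LPD and 0 were higher, with a median log2 fold change of -0.15. Calcrl, the receptor of adrenomedullin, fell from 21.5 to 16.1 CPM (log2 fold change -0.42 ± 0.093 SE, adjusted p = 0.00237; 0.0505 with LPD replicate 1 counted as SPD, its highest), and F8, coagulation factor VIII, fell by 0.34 ± 0.099 on the log2 scale (adjusted p = 0.0125; 0.0568 with LPD replicate 1 counted as SPD and 0.093 with the SP1 and LP4 libraries alone). Maf, a transcription factor of sinusoidal endothelium that macrophages also express, fell by 0.18 ± 0.060 (adjusted p = 0.0292), a call lost in 11 of 23 alternatives. The summed CPM of these 14 genes ran from 467 to 522 in SPD and from 433 to 491 in LPD, which overlap, as do those of the 10 markers.

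Of 22 genes expressed by endothelium in general, 3 were lower and 1 was higher, where 19.2% and 20.7% of all tested genes were. The estimate was below 0 for 19 of the 22, with a median of -0.20. Tie1 was the lower gene with the smallest adjusted p. Ecscr, an endothelial surface protein, fell by 0.40 ± 0.14 on the log2 scale (SE; adjusted p = 0.0301) but lost its call in 11 of 23 alternatives. S1pr1, the sphingosine 1-phosphate receptor that stabilises junctions, rose by 0.34 ± 0.11 (SE; adjusted p = 0.0231), and lost its call without SPD replicate 4 (0.0519), without LPD replicates 2 and 5 (0.103) and with the SP1 and LP4 libraries alone (0.159). The summed CPM of the 22 was 350 to 370 in SPD and 337 to 376 in LPD. Ptprb and Eng, abundant genes of the list, chosen for mention after their values were seen, did not pass: Ptprb stood at 101 CPM in SPD and 104 in LPD, and Eng at 69.4 and 70.0 CPM.

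Genes of particular vessel segments were few, and their counts are again read against 19.2% lower and 20.7% higher among all tested genes. Of 5 tested genes of capillaries and larger vessels, 3 were lower, with a list median of -0.62: Vwf, the von Willebrand factor of larger vessels, fell from 23.0 to 13.7 CPM (log2 fold change -0.74 ± 0.15 SE, adjusted p = 0.00131), Plvap, the diaphragm protein of fenestrae, from 59.2 to 46.2 CPM (-0.36 ± 0.095, adjusted p = 0.00752) and Cd34 from 7.44 to 4.83 CPM (-0.62 ± 0.20, adjusted p = 0.0241, lost in 6 of 23 alternatives). The summed CPM of that list did not overlap, with 98.4 to 120 in SPD and 58.8 to 87.3 in LPD. Among 7 pericentral genes 1 was lower, the fatty acid binding protein Fabp4, from 42.2 to 19.4 CPM (-1.12 ± 0.18, adjusted p = 0.000204). The other 6 did not pass, and the list median was -0.047. Which cells of the whole liver the Fabp4 RNA came from was not tested. Among 5 periportal genes 1 was lower, the scavenger receptor Msr1, which macrophages also express, from 26.4 to 15.4 CPM (-0.78 ± 0.14, adjusted p = 0.00053). The lymphatic list of 4 tested genes held 1 lower gene, Flt4 itself, and 1 higher gene, Prox1, which hepatocytes also express, from 97.3 to 133 CPM (0.45 ± 0.092, adjusted p = 0.00119).

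**Figure D4:**
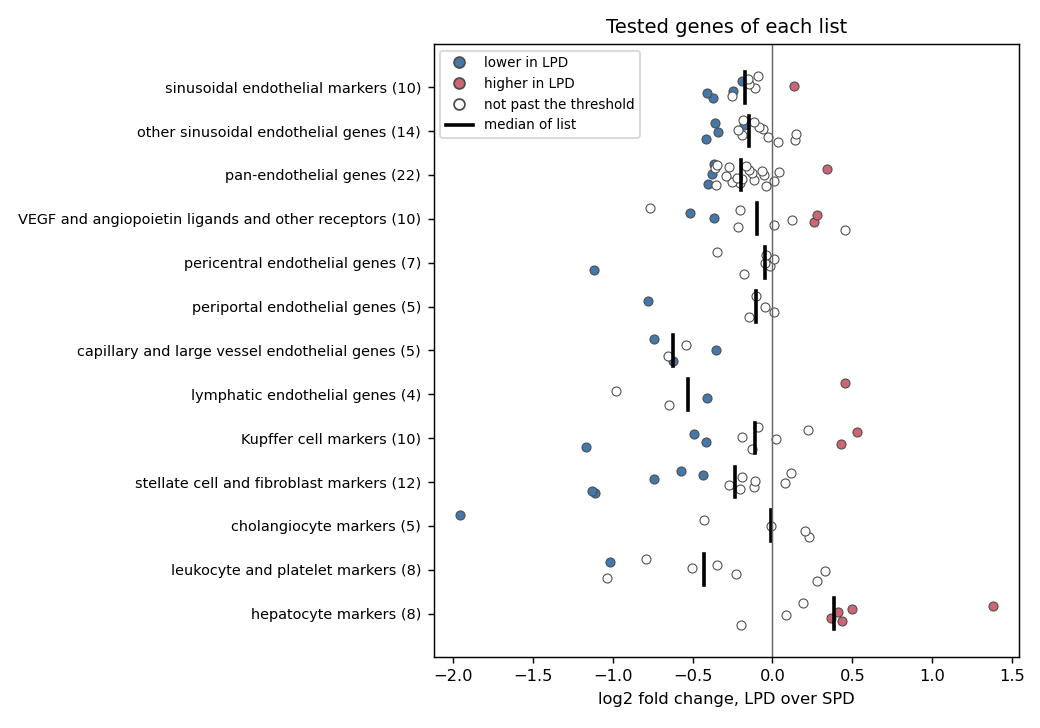
Log2 fold change (LPD over SPD) of each tested gene in the 13 lists, 1 point per gene, coloured where edgeR's adjusted p was under 0.05, with the list median as a bar. The sinusoidal list has its median at -0.17, capillary and large vessel genes at -0.62, stellate cell genes at -0.24 and hepatocyte markers at 0.39.

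Some markers of the other liver cells also differed between the diets, and their part in the endothelial results was not tested. Their counts are to be read against the 19.2% of all tested genes called lower and the 20.7% called higher, and no list was tested against them. Of 12 stellate cell and fibroblast genes 5 were lower and 0 higher, with a median of -0.24; Col3a1 and Col1a1, the fibrillar collagens, fell by 1.13 ± 0.27 (adjusted p = 0.00375) and 1.11 ± 0.30 (adjusted p = 0.00839; 0.0854 with the SP1 and LP4 libraries alone) on the log2 scale, and Rgs5, a pericyte gene, by 0.57 ± 0.12 (adjusted p = 0.00129). The other 7 genes of that list did not pass. Among them, chosen for mention after their values were seen, Lrat was at -0.11 ± 0.14 (SE, adjusted p = 0.587) and Reln at 0.12 ± 0.14 (SE, adjusted p = 0.553). The summed CPM of that list was 604 to 818 in SPD and 427 to 697 in LPD. Of 8 hepatocyte genes 5 were higher and 0 lower, with a median of 0.39; the regulator Hnf4a rose by 0.41 ± 0.060 (SE; adjusted p = 8.3e-05), Tat, a tyrosine catabolic enzyme, by 1.38 ± 0.21 and Serpina1a, the antitrypsin, by 0.50 ± 0.085. The summed CPM of the hepatocyte list, which albumin dominates, was 75253 to 83815 in SPD and 66372 to 90458 in LPD.

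Of 10 Kupffer cell genes 3 were lower and 2 higher. The 3 smallest adjusted p-values were those of C6, which fell by 1.17 ± 0.11 (SE; adjusted p = 1.04e-06), Folr2, which fell by 0.49 ± 0.092 (adjusted p = 0.000597; 0.0576 with LPD replicate 1 counted as SPD), and Cd163, a haemoglobin receptor, which rose by 0.43 ± 0.13 (adjusted p = 0.0136; 0.0716 without LPD replicates 2 and 5). Clec4f, the defining Kupffer cell lectin, chosen for mention after its values were seen, stood at 137 CPM in SPD and 139 in LPD (log2 fold change 0.020 ± 0.062 SE, adjusted p = 0.824). The summed CPM of the Kupffer list was 678 to 1007 in SPD and 577 to 785 in LPD. Of 5 tested cholangiocyte genes 1 was lower, Spp1, which other cells also make (-1.95 ± 0.29, adjusted p = 8.88e-05). Of 8 tested genes of leukocytes, platelets and red cells 1 was lower, S100a8, a neutrophil protein (-1.01 ± 0.38, adjusted p = 0.0443, lost in 13 of 22 alternatives). Estimates were below 0 for 6 of the 8, and the list median was -0.43. Summed over this list, SPD livers held 382 to 719 CPM (median 485) and LPD livers 92.9 to 895 CPM (median 137). LPD replicate 4 held the 895 CPM, and the next LPD liver, replicate 6, held 158 CPM. Hbb-bs, a haemoglobin gene picked after its values were seen, did not pass (-1.04 ± 0.52 SE, adjusted p = 0.128). Pgf, Apln, Aplnr, Pdpn and Cldn7 were among the listed genes too low to be tested.

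To see which genes varied between livers in the way the 10 markers did, diet means were taken off each gene's log2 CPM and the remaining deviations were compared with the mean standardised deviation of the 10. The mean was highest in LPD replicate 1, at 1.39, and lowest in SPD replicate 3, at -0.73. Pearson's r of a marker with that mean, which holds the marker itself, was 0.81 for Stab1, 0.77 for Flt4, Stab2 and Cdh5, 0.76 for Pecam1 and 0.69 for Tek, and it was lower for Clec4g (0.47), Oit3 (0.45), Lyve1 (0.26) and Kdr (0.19). Kdr, called lower in LPD beside Cdh5 and Flt4 followed the other markers least among livers of one diet.

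Over the same 12 livers the 8 genes most like the mean, of 12453 others, were Afp (r = 0.96), Ap1s1 (0.91), Cdk4 (0.90), Lpcat3 (0.89), Ppp2r2d (0.88), Ecscr (0.88), Pdzk1ip1 (0.87) and Raet1e (0.87). Ecscr is the one gene among them that is on an endothelial list. Without LPD replicate 1 the values were 0.90 for Afp, 0.75 for Ap1s1, 0.73 for Pdzk1ip1 and 0.68 for Raet1e, and between 0.85 and 0.92 for the other 4. Afp, the fetal alpha-fetoprotein, measured 5.15 CPM in LPD replicate 1 and at most 2.70 in the other LPD livers. Afp, Ap1s1, Cdk4, Lpcat3, Ecscr, Pdzk1ip1 and Raet1e were lower in LPD (Cdk4 lost its call in 10 of 23 alternatives), and Ppp2r2d did not pass, at 0.0040. The 12 livers differ in depth, and a likeness over 12 livers is a description without a test.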

How the data were processed

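The table deposited by the authors holds 1 column of expected counts per liver for 56980 genes, with a gene length column. Between 17.1% and 18.9% of the nonzero values per liver are not whole numbers, so they are estimated counts and were rounded. TopHat, DESeq2 and mm10 are named in the submitters' processing notes; the counting program, annotation release, strand setting and treatment of multi-mapping reads were not given in the sources used here. Symbols are missing for 1542 genes.

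Genes were kept by edgeR's filterByExpr (minimum count 10, minimum total 15), which left 13768, and scaled by the trimmed mean of M values. LPD was compared with SPD by edgeR's quasi-likelihood test (edgeR 4.0.16, limma 3.58.1, R 4.3.3) on all 12 livers without covariates, with Benjamini-Hochberg adjustment over all tested genes. The standard error of a log2 fold change is its size divided by the square root of F. Log2 CPM values, computed from the deposited counts with a prior count of 2, gave the ratios and the likeness. The procedure was tested on simulated data. Each marker had between 281 and 1737 counts per library, and the spread between livers includes counting noise. The mice are separate animals, 6 per diet.

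The 10 markers, the gene lists and the tests were chosen with earlier results of these data known. The text names all 10 markers, the tested VEGF and angiopoietin genes, up to 3 called genes with the smallest adjusted p in each other list, and the 8 genes most like the markers; any other gene is said to be chosen after its values were seen. Locations are from GENCODE M21 on GRCm38 and promoters from RefSeq on GRCm38.p6, 250 bases before the RefSeq start; motifs were counted in the whole window, and the printed sequences leave out bases inside the GENCODE gene.

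The replicate numbers do not pair the livers. The 23 alternatives covered scaling, filters, DESeq2 (1.42.0), limma-voom, a replicate block, the livers and library codes left out, and the doubtful label of LPD replicate 1. Scaling by plain library totals was added after seeing the data. No column was left unmapped.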

Additional observations from a re-analysis of the deposited data

Results flagged for a closer look

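In 13 of 112 groups of 6 livers examined for the genes named, the highest or lowest liver stood apart from the rest, its gap to the nearest liver divided by the range of the group being above Dixon's 95% critical value for 6 samples. Chance flags about 1 group in 20.

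Among the markers these were Stab1 in SPD replicate 5 (58.7 CPM against 52.0 in the next liver, a gap of 0.716 of the range), Clec4g in the same liver (60.7 against 44.6 CPM, 0.743) and Oit3 in LPD replicate 1 (41.3 against 39.3 CPM, 0.718). Tie1 was also highest in SPD replicate 5 (24.5 against 21.7 CPM, 0.635), and Hnf4a was lowest there (391 against 412 CPM, 0.636). F8 was low in LPD replicate 3 (17.3 against 22.4 CPM, 0.75).

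SPD replicate 6 was high for Msr1 (37.7 against 27.2 CPM, 0.627), Folr2 (18.3 against 15.2 CPM, 0.649) and S100a8 (2.71 against 1.37 CPM, 0.696). LPD replicate 1, the liver with conflicting labels, was high for 4 of the 8 genes most like the markers: Afp (5.15 against 2.70 CPM, 0.672), Ap1s1 (39.9 against 34.4 CPM, 0.672), Pdzk1ip1 (2.19 against 1.01 CPM, 0.717) and Raet1e (21.7 against 15.2 CPM, 0.659). Those 4 genes were chosen for a profile in which this liver is the highest, so they are not separate observations of it.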

How the results depend on the processing

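The results rest on 6 livers per diet, on library codes that never cross the diets and on 1 liver with a doubtful label. Cdh5 and Flt4 kept their direction and call in all 23 alternatives, and Pecam1 and Tek kept their direction without a call. The median of the 10 ran from -0.21 to -0.12. With a replicate block, added although the numbers do not pair the livers (correlations of -0.054 to 0.097, 2 of 6 SPD livers closest to their own number), 6 markers were lower and 0 higher, among 2562 lower and 2668 higher genes.

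The count of markers called higher, 1, became 0 with upper quartile scaling, without a filter, with the replicate block, with LPD replicate 1 counted as SPD, with the SP1 and LP4 libraries alone and without LPD replicates 2 and 5; leaving out 1 liver gave 0 to 1 (0 without SPD replicates 1, 3 or 5 and LPD replicates 1 or 5). Markers called lower were 2 with the SP1 and LP4 libraries alone, where 1827 genes were higher and 1693 lower, and 3 to 5 with 1 liver left out. They were 5 with LPD replicate 1 counted as SPD, where 2265 genes were higher and 2224 lower. Plain library totals gave 3435 higher and 1976 lower genes against 2850 and 2646, with the median of all genes at 0.051.

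Directions that reversed were, for log2 fold changes: Ppp2r2d (-0.0028 with DESeq2 size factors and its Wald test, -0.010 with upper quartile scaling, -0.0027 with a minimum of 1 CPM, -0.060 with LPD replicate 1 as SPD, and from -0.042 to 0.035 with 1 liver left out, below 0 without SPD replicates 3 or 6 (-0.011) or LPD replicates 1 (-0.033), 3 (-0.00082) or 4 (-0.0079)), Flt1 (-0.0063 with upper quartile scaling, -0.0050 with limma-voom, -0.034 without LPD replicates 2 and 5, and from -0.015 to 0.033 with 1 liver left out, below 0 without SPD replicate 2 (-0.0069) or LPD replicates 2 or 5 (-0.00035)), Angpt1 (-0.028 with LPD replicate 1 as SPD), Angpt2 (0.0021 with SP1 and LP4 alone, 0.095 without LPD replicates 2 and 5) and Lyve1 (0.016 without LPD replicate 2, 0.14 without LPD replicates 2 and 5). For ratios, Lyve1 over Stab2 was -0.033 with LPD replicate 1 as SPD and -0.18 with SP1 and LP4 alone, where Stab2 over Stab1 was -0.017 and Clec4g over Stab2 0.021. Lyve1 over Stab2 ran from -0.13 to 0.15 with 1 liver left out. Kdr over Flt1 kept its direction with SP1 and LP4 alone, at -0.22, but was no longer called. With 4 livers against 4 no exact p can be below 0.0286. Calls were gained without LPD replicates 2 and 5 for Tek over Tie1 (0.35) and Cdh5 over Pecam1 (-0.30), and with 1 liver left out, for Tek over Tie1 (0.20 to 0.31), Cdh5 over Pecam1 (-0.26 to -0.18) and Kdr over Flt4 (0.11 to 0.24). The causes were not tested.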
